A study of Homo sapiens with 11 samples.

Results

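Cholesterol synthesis was followed through 9 genes in ARPE-19, an established human cell line that derives from the retinal pigment epithelium (RPE). Of these, 7 encode enzymes of the pathway (HMGCS1, IDI1, FDPS, FDFT1, SQLE, LSS and DHCR7), and 2 encode proteins that control it rather than catalyse a step (SREBF2 and INSIG1). The genes were taken by symbol from the 60605 features of the deposited table, and all 9 were among the 18828 genes that reached a normalised count of at least 10 in at least 2 libraries and were tested. Polyadenylated RNA had been sequenced from stable ARPE-19 lines 4 days into expression of an open reading frame: GFP, a fluorescent protein, as the control (n = 3 libraries), Oct4, Sox2 or Klf4 alone (n = 2 each), or Oct4, Sox2 and Klf4 together (OSK, n = 2). The names of all factor libraries also carry the tag mC, which those of the GFP libraries lack; the labels do not explain it, and what it stands for cannot be told apart from the factors in comparisons with GFP. The 3 factors are transcription factors used in reprogramming cells towards pluripotency. The labels name neither the species of the open reading frames nor the vector or promoter, and do not say whether a line was a clone or whether the libraries of a line came from separate cultures, so p-values measure only the spread between these libraries, which may be technical.

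Cells build cholesterol from acetyl-CoA by way of mevalonate, the isoprenoid building blocks, squalene and lanosterol. The transcription factor SREBP-2, the product of SREBF2, switches on nearly every gene of this route, including its own. It is made as a membrane protein of the endoplasmic reticulum, which the escort protein SCAP carries to the Golgi for cleavage when membrane sterol is low, whereas INSIG1 retains SCAP and lowers the output when sterol is plentiful. RPE cells also take in cholesterol with lipoproteins and with the outer segments shed by photoreceptors.

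The libraries held 15053300 to 19791775 recovered reads, and the 9 genes had 914 to 15905 reads in each library. Within a line the coefficient of variation of the 9 genes had a median of 2.61% and a range of 0.187% to 9.09%. The delivered factors matched the labels: POU5F1, the gene of Oct4, stood at 66823 and 67326 normalised counts in the Oct4 line, at 19020.3 and 19542 in the OSK line and at 174 to 446 elsewhere. SOX2 stood at 29106 and 29141 in the Sox2 line, at 17582 and 17764 in the OSK line and at 43.7 to 197 elsewhere, and KLF4 at 22142 and 24205 in the Klf4 line, at 24202 and 24469.8 in the OSK line and at 45.5 to 248 elsewhere. In 2 libraries many silent genes had reads: 67.7% of 405 olfactory receptor genes had at least 1 read in GFP replicate 1. The share was 23.0% in OSK replicate 1 and 4.94% to 8.15% in each of the other 9 libraries. Of 15 RPE markers 12 were tested, and 9, 6, 4 and 10 of them fell and 1, 0, 2 and 1 rose in Oct4, Sox2, Klf4 and OSK. In the same order, 37.3%, 41.6%, 33.5% and 39.7% of all 18828 genes tested were called against GFP in either direction. Those called lower numbered 3238, 3744, 3008 and 3759. RPE65, the isomerase of the visual cycle, was at 0 in Oct4 and Sox2, at most 0.99 in the GFP libraries and 4.63 in any library, and the summed level of the 15 was 33573 to 37258 in GFP, 18519.6 to 19089.7 in Oct4, 21516 to 22199 in Sox2, 26139 to 29295 in Klf4 and 16032 to 16315 in OSK. The keratins KRT8 and KRT18 made up most of this sum in every library, so it does not show larger falls of other markers. PMEL, a pigment gene of the list, stood at 4094 to 6067 in GFP and 524 to 700 in Oct4. Its level was 101 to 180 in Sox2, 1184 to 1356 in Klf4 and 749 to 868 in OSK. The summed level of 4 immune markers was at most 81.4, reached in a GFP library. That of 6 photoreceptor and neuron markers, mostly TUBB3, was 324 to 454 in GFP and 50.4 to 126 elsewhere. That of 4 endothelial markers, mostly KDR, was 1091 to 1343 in GFP and 535 to 892 elsewhere. The sum of 6 fibroblast markers was 13858 to 16417 in GFP, 10285 to 15509 in Oct4 and Sox2, and 5131 to 8523 in Klf4 and OSK. The fibroblast sum hides opposite changes: in Sox2, 1 of the 4 tested markers rose and 2 fell. COL1A1 stood at 8369 and 7029 in Sox2 and at 2884 to 4845 in GFP. PDGFRB stood at 7099 and 5770 in Sox2 and at 10874 to 11534 in GFP. For 10 proliferation genes the summed level was 2425 to 2692 in GFP, 2536 to 2616 in Oct4, 4417 to 4595 in Sox2, 8376 to 9603 in Klf4 and 7918 to 8327 in OSK. The part of these differences in the changes given next was not tested.

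Most of the 9 genes were higher in every factor line than in GFP, by up to 2.02-fold of the means, with LSS and SREBF2 as the genes that also went down. Against GFP, 8 genes rose and 0 fell in the Oct4 line, where 37.3% of all genes tested were called in either direction and 20.1% as higher. In the Sox2 line 6 rose and 1 fell, with 41.6% of all genes called and 21.7% higher. In the Klf4 line 7 rose and 1 fell, with 33.5% called and 17.6% higher. In the OSK line 8 rose and 1 fell, with 39.7% called and 19.7% higher. The median log2 change of the 9 genes was 0.45 in Oct4, 0.42 in Sox2, 0.21 in Klf4 and 0.36 in OSK, and that of all genes tested lay between -0.02 and -0.01. These 4 comparisons share the GFP libraries, so their values are given side by side and are not independent of each other. A call is a limma adjusted p below 0.05, and changes are on the log2(normalised count + 1) scale. The Klf4 count was the least stable: it ranged from 2 to 8 over the alternative analyses, and it was 4 without Klf4 replicate 1, 3 without Klf4 replicate 2 and 5 without GFP replicate 3. Without GFP replicate 1 and OSK replicate 1, the counts called in either direction were 8 in Oct4, 7 in Sox2, 6 in Klf4 and 7 in OSK.

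**Figure D1:**
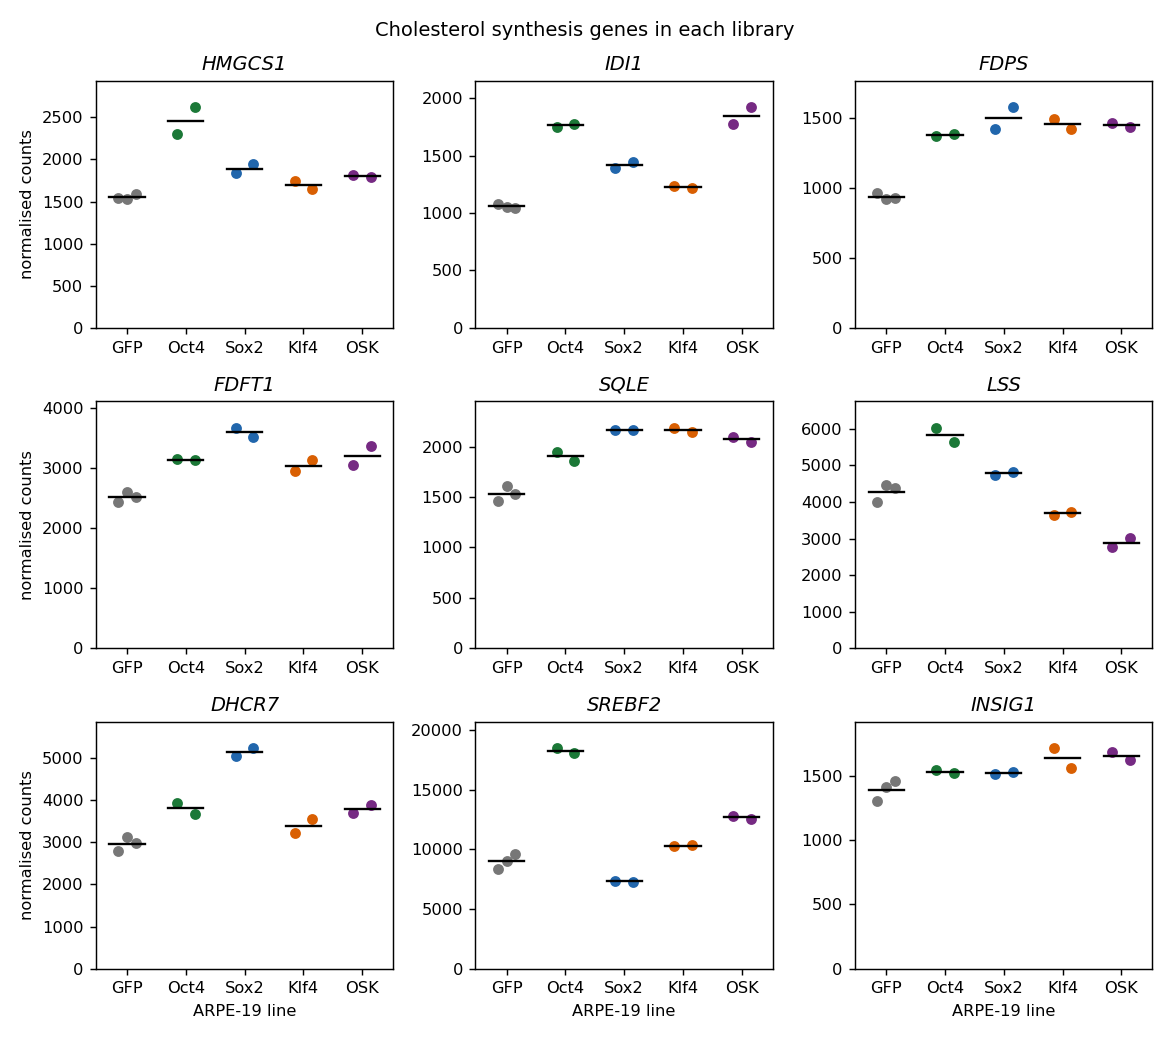
Normalised counts (vertical axes, from 0) of the 9 genes in the 11 libraries, by ARPE-19 line (horizontal axes); each point is a library and each bar the mean of its line. SREBF2 stood highest in Oct4 and lowest in Sox2, LSS fell below GFP in Klf4 and OSK, and FDPS was above GFP by a similar amount in all 4 factor lines.

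SREBF2 (chromosome 22, 41833079 to 41907308, plus strand, GRCh38, GENCODE release 29) had the widest range of the 9 genes. Its normalised counts were 8389, 9067 and 9658 in GFP, 18469 and 18047 in Oct4, 7337 and 7293 in Sox2, 10302 and 10337 in Klf4, and 12818 and 12553 in OSK. No factor line overlapped with GFP, and the 5 lines formed an order without overlap, from Oct4 through OSK, Klf4 and GFP down to Sox2. SREBF2 rose by 1.02 on the log2 scale in Oct4 (SE 0.07, adjusted p = 1.09e-08), 2.02-fold of the means, and by 0.49 in OSK (adjusted p = 2.85e-05). In Sox2 the change was -0.30 (adjusted p = 0.00206), and with TMM factors taken over all features it was -0.23 (adjusted p = 0.226), which did not pass. The change of 0.19 in Klf4 (adjusted p = 0.0405) lost its call when any library but GFP replicate 3 was left out, with adjusted p up to 0.150. Oct4 and Sox2 differed directly by 1.32 (adjusted p = 2.03e-09).

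The promoter window of SREBF2 holds letters that match motifs of Oct4 and of SREBP, and is printed here because SREBF2 is the one of the 9 genes that differed most between the Oct4 and Sox2 lines. RefSeq (GRCh38.p14) gives windows from 250 bases before to 50 bases after each start site; 7 of the 9 genes matched (all but FDFT1 and SQLE), with 11 windows, and 12 strings were searched on both strands. The piece below lies at chr22:41832930-41833009, plus strand, and overlaps an exon of the antisense transcript SREBF2-AS1. Capitals mark, in order, an octamer (ATGCAAAT, the string that Oct4 and its relatives bind), a sterol regulatory element, to which SREBPs bind, and an inverted CCAAT box (ATTGG), to which NF-Y binds.
SREBF2: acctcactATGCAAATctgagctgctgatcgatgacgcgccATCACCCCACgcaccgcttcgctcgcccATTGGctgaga
The octamer begins 167 bases and the sterol element 134 bases before the start site. Of all 35116 windows, 1.77% held the octamer, 0.0456% (16 windows) held the sterol element and 3 held both. Among the 7 matched genes, the octamer was in 1 and the sterol element in 1, in both cases SREBF2. A match of letters describes the sequence only, and binding was not measured.

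Among the 7 matched genes, the CCAAT string was in 7 (34.6% of all windows hold it) and the GC box GGGCGG in 7 (45.0%). The percentages are shares of single windows, whereas a gene counts if any of its windows holds the string. With 11 windows for the 7 genes, and several each for HMGCS1, IDI1 and DHCR7, these figures are not alike in unit. The E-box CACGTG, which reads the same on both strands, was in LSS and INSIG1 (7.26%), and the KLF string CCACACCC in HMGCS1, IDI1 and DHCR7 (3.28%). The SOX string ACAAAG was in HMGCS1 (16.1%), AACAAT in 0 of the 7 (10.1%), and the ETS string CGGAAG in FDPS and IDI1 (19.5%). Shorter forms of the sterol element, which lie within each other, were in SREBF2: TCACNCCAC (1.13%), TCACNCCA (3.95%) and TCACCCC (5.48%). Printed 5' to 3' on the strand of the gene are a stretch with the inverted CCAAT box from each of 4 of the 7 genes, as the string found in every matched gene, and a stretch of INSIG1 with the E-box. The CCAAT box, the GC box and the E-box are in capitals.
HMGCS1: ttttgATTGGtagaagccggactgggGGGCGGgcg
FDPS: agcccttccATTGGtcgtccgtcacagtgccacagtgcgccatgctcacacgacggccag
LSS: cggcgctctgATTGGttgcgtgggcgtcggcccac
INSIG1: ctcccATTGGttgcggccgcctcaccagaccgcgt
INSIG1 E-box: cgggcaggctCACGTGatgcgggccccgc
They lie at chr5:43313538-43313572 (minus strand), chr1:155308681-155308740 (plus), chr21:46228900-46228934 (minus), chr7:155297703-155297737 (plus) and chr7:155297813-155297841 (plus).

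An intron of SREBF2 encodes miR-33a, a microRNA known to repress the sterol exporter ABCA1. Its mature 5p strand lies at chr22:41900949-41900969 (plus strand, GRCh38.p14), outside the SREBF2 exons, and is shown with its seed (bases 2 to 8) in capitals.
hsa-miR-33a-5p: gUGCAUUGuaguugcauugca
Its gene MIR33A was listed at 0 to 2.29 normalised counts per library, and poly(A) libraries do not measure the mature form. ABCA1 rose by 0.98 in Oct4, 1.36 in Sox2 and 1.61 in OSK (adjusted p = 2.28e-06, 4.36e-08 and 7.91e-09) and had a change of -0.02 in Klf4 (adjusted p = 0.898).

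INSIG1 (chromosome 7, 155297776 to 155310235, plus strand), the sterol-dependent brake and itself an SREBP target, had the smallest value of the 9 genes when each was taken at its largest change from GFP. Normalised counts of the gene were 1306, 1414 and 1457 in GFP, 1547 and 1519.9 in Oct4, 1512 and 1534 in Sox2, 1714 and 1563 in Klf4, and 1686 and 1625 in OSK. All 8 libraries of the factor lines lay above the highest GFP library, by a small margin. The gene rose by 0.25 in OSK (SE 0.07, adjusted p = 0.00935) and by 0.23 in Klf4 (adjusted p = 0.0166). These calls rested on single libraries: without OSK replicate 1 the adjusted p in OSK was 0.0851, and without Klf4 replicate 1 that in Klf4 was 0.193. The changes of 0.14 in Oct4 and 0.13 in Sox2 did not pass (adjusted p = 0.133 and 0.154), and no pair of the 4 factor lines was told apart by the test. Its paralog INSIG2 rose in Sox2 (0.40, adjusted p = 0.000471) and was not called in the other lines (-0.18 to 0.05).

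**Figure D2:**
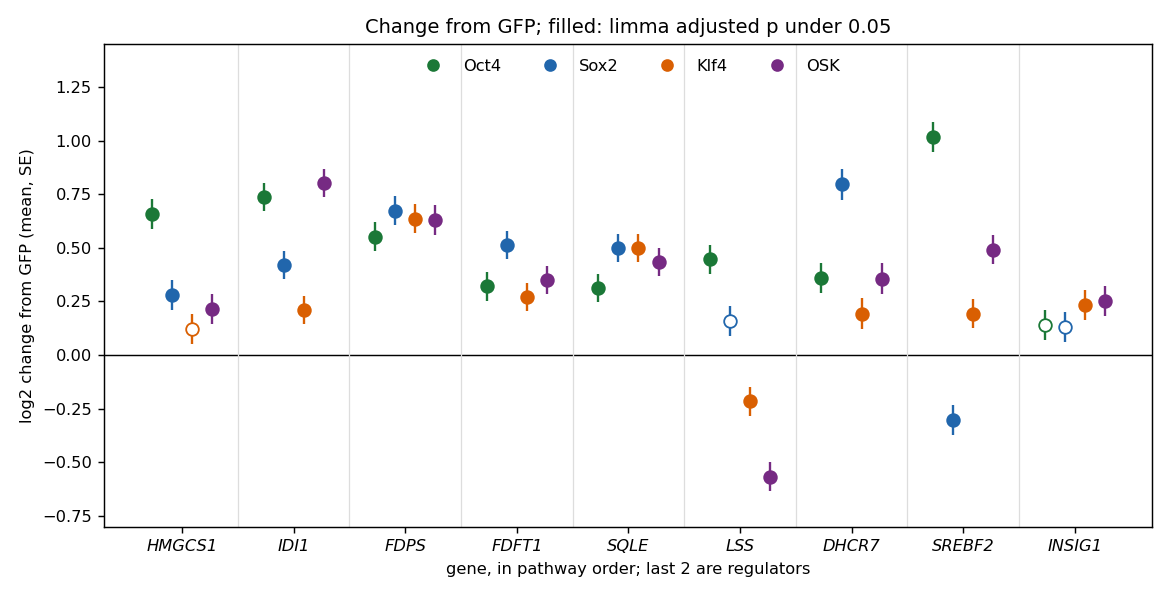
Log2 change from GFP (vertical axis; point, limma estimate; bar, SE) of the 9 genes in the 4 factor lines, with filled points for adjusted p below 0.05. FDPS had similar changes in all 4 lines, and SQLE rose in all 4, by 0.31 in Oct4 and up to 0.50 in Sox2. SREBF2 ranged from -0.30 to 1.02 and LSS from -0.57 to 0.45.

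HMGCS1 (chromosome 5, 43289395 to 43313512, minus strand), the cytosolic synthase that makes HMG-CoA, was highest in the Oct4 line. The libraries had normalised counts of 1547, 1528 and 1590.3 in GFP, 2301 and 2618 in Oct4, 1836 and 1943 in Sox2, 1742 and 1645 in Klf4, and 1816 and 1795 in OSK. All factor libraries lay above GFP, and both Oct4 libraries lay above all others. HMGCS1 rose by 0.66 in Oct4 (SE 0.07, adjusted p = 1.64e-06), by 0.28 in Sox2 (adjusted p = 0.00399, and 0.0597 without Sox2 replicate 2) and by 0.22 in OSK (adjusted p = 0.0218). The OSK call was lost without OSK replicate 1 (0.112), OSK replicate 2 (0.0875) or GFP replicate 2 (0.0576), and the change of 0.12 in Klf4 did not pass (adjusted p = 0.199).

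IDI1 (chromosome 10, 1039152 to 1049170, minus strand) interconverts the isoprenoid units IPP and DMAPP. In normalised counts it stood at 1082, 1052 and 1041 in GFP, 1751 and 1777 in Oct4, 1393 and 1443 in Sox2, 1232 and 1217 in Klf4, and 1773 and 1918 in OSK. The lines fell into an order without overlap except that Oct4 and OSK overlapped at the top. IDI1 rose by 0.80 in OSK (SE 0.06, adjusted p = 7.18e-08), 0.74 in Oct4 (2.16e-07), 0.42 in Sox2 (6.59e-05) and 0.21 in Klf4 (0.0203). The Klf4 call was lost without GFP replicate 3 (adjusted p = 0.0569), Klf4 replicate 1 (0.106) or Klf4 replicate 2 (0.0737). The paralog IDI2 was listed at 0 to 4.05.

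FDPS (chromosome 1, 155308748 to 155320666, plus strand), the synthase of geranyl and farnesyl diphosphate and the target of the nitrogen-containing bisphosphonates, rose alike in all lines. Per library the normalised counts were 963, 925 and 930.3 in GFP, 1371 and 1385 in Oct4, 1422 and 1578 in Sox2, 1493 and 1427 in Klf4, and 1468 and 1441 in OSK. No factor library came near the GFP range, while Sox2, Klf4 and OSK overlapped with one another. FDPS rose by 0.55 in Oct4 (SE 0.07, adjusted p = 8.7e-06), 0.67 in Sox2 (7.86e-07), 0.64 in Klf4 (2.49e-06) and 0.63 in OSK (1.89e-06), and each call held in all 22 alternative analyses. Between factor lines its differences were at most 0.12 (Oct4 against Sox2, SE 0.07, adjusted p = 0.248).

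FDFT1 (chromosome 8, 11795573 to 11839309, plus strand), squalene synthase, takes the first step committed to sterols. The gene had normalised counts of 2441, 2607 and 2519.6 in GFP, 3159.6 and 3136 in Oct4, 3674 and 3529 in Sox2, 2962 and 3132 in Klf4, and 3055 and 3373 in OSK. Every factor library was above GFP, and the Sox2 libraries were the highest. FDFT1 rose by 0.51 in Sox2 (SE 0.07, adjusted p = 9.42e-06), 0.35 in OSK (0.000464), 0.32 in Oct4 (0.00109) and 0.27 in Klf4 (0.00423, and 0.0585 without Klf4 replicate 2).

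SQLE (chromosome 8, 124998497 to 125022283, plus strand), the squalene epoxidase and a rate-limiting step of the later pathway, also rose in all lines. Levels were, in normalised counts, 1459, 1609 and 1531 in GFP, 1949.6 and 1855 in Oct4, 2163 and 2169 in Sox2, 2185 and 2141 in Klf4, and 2099 and 2043 in OSK. The factor lines lay above GFP, with Sox2 and Klf4 overlapping at the top. SQLE rose by 0.50 in Sox2 (SE 0.06, adjusted p = 1.06e-05), 0.50 in Klf4 (1.8e-05), 0.43 in OSK (5.04e-05) and 0.31 in Oct4 (0.00117), and these calls held in all 22 alternative analyses.

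LSS (chromosome 21, 46188141 to 46228824, minus strand), the cyclase that closes the sterol rings to give lanosterol, changed in both directions. Its normalised counts were 4009, 4467 and 4371 in GFP, 6022 and 5644 in Oct4, 4725 and 4829 in Sox2, 3649 and 3722 in Klf4, and 2773 and 3009 in OSK. The lines did not overlap, and the order ran from Oct4 through Sox2, GFP and Klf4 to OSK. LSS rose by 0.45 in Oct4 (SE 0.07, adjusted p = 7.37e-05) and fell in OSK with a change of -0.57 (adjusted p = 5.63e-06), and both calls held in all 22 alternative analyses. The change of 0.16 in Sox2 did not pass (adjusted p = 0.0733). The change of -0.22 in Klf4 (adjusted p = 0.0225) was lost without GFP replicate 2 (0.0763), GFP replicate 3 (0.0652), Klf4 replicate 1 (0.127) or Klf4 replicate 2 (0.0761).

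DHCR7 (chromosome 11, 71428193 to 71452868, minus strand), which reduces 7-dehydrocholesterol to cholesterol in the last step of one of the late branches, was highest in Sox2. The libraries gave normalised counts of 2784, 3124 and 2969 in GFP, 3931 and 3665 in Oct4, 5044 and 5218 in Sox2, 3213 and 3555 in Klf4, and 3686 and 3886 in OSK. All factor libraries were above GFP, the Sox2 libraries stood apart, and Oct4 and OSK overlapped. DHCR7 rose by 0.80 in Sox2 (SE 0.07, adjusted p = 1.85e-07), by 0.36 in Oct4 (0.000787) and by 0.36 in OSK (0.000745). The change of 0.19 in Klf4 (adjusted p = 0.0467) lost its call when any library but GFP replicate 2 or Klf4 replicate 1 was left out, with adjusted p up to 0.365.

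The 7 enzymes were set beside the 14 other enzymes of the pathway from acetoacetyl-CoA to cholesterol, a list taken by place in the pathway but drawn up with earlier results of these data known. Of the 14, 9 rose in Oct4, 14 in Sox2, 12 in Klf4 and 13 in OSK, and 0 fell in any line. In these lines 20.1%, 21.7%, 17.6% and 19.7% of all genes tested were called higher. Over all 21 enzymes the median log2 change was 0.55 in Oct4, 0.64 in Sox2, 0.39 in Klf4 and 0.59 in OSK. Higher calls in all 4 lines were made for 12 of the 21, or 57.1%, as against 3.36% of all genes tested. The 12 include IDI1, FDFT1 and DHCR7, whose Klf4 calls were lost in some alternative analyses. A further 7 rose in 3 lines, and TM7SF2, a sterol reductase, rose in Sox2 and OSK. LSS was the single enzyme of the 21 with a lower call in any line.

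MSMO1, the sterol C4-methyl oxidase, had 1255, 1408 and 1390.1 normalised counts in GFP and 2947 and 3022 in Sox2. Both Sox2 libraries lay above all GFP libraries, and MSMO1 rose by 1.14 in Sox2 (adjusted p = 1.67e-09), 0.77 in Oct4, 0.64 in Klf4 and 0.97 in OSK. In Oct4 the largest rise was that of SC5D, the desaturase before DHCR7 (1.08, adjusted p = 3.17e-08), and in OSK that of HSD17B7, a sterol ketone reductase (1.2, adjusted p = 6.07e-08). In Oct4, PMVK (-0.02), EBP (-0.03), LBR (0.05), TM7SF2 (0.09) and NSDHL (0.14) were not called, with adjusted p between 0.219 and 0.917.

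**Figure D3:**
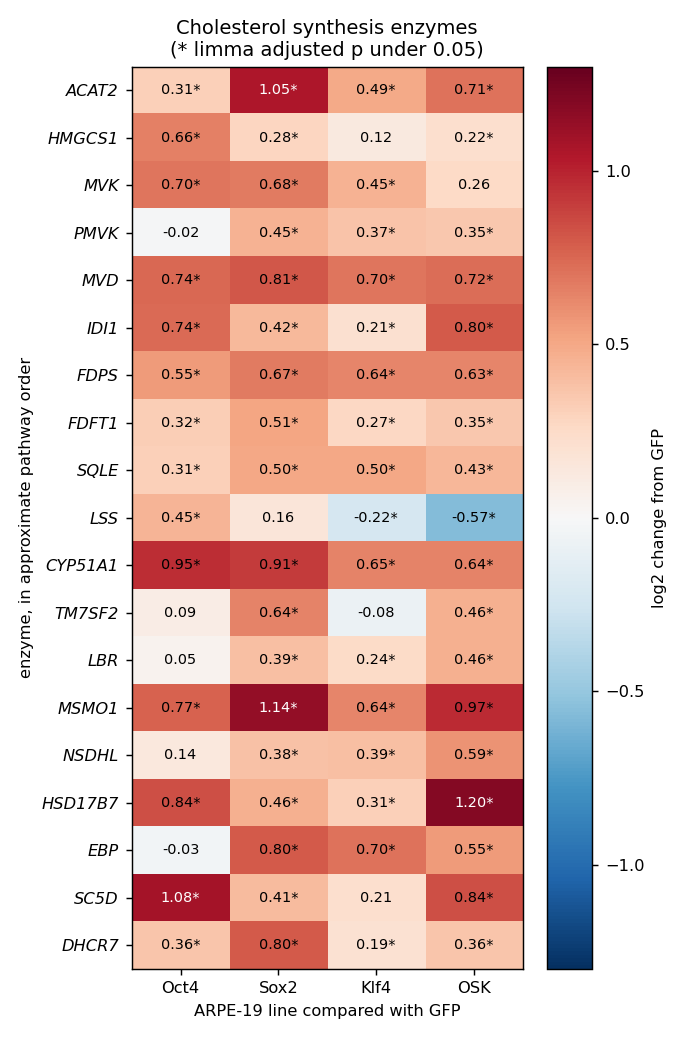
Log2 change from GFP (colour and number) of 19 of the 21 enzymes (vertical axis, in approximate pathway order) in the 4 factor lines (horizontal axis); an asterisk marks a limma adjusted p below 0.05. Rises run through most of the pathway, while LSS in the middle has -0.22 in Klf4 and -0.57 in OSK; HSD17B7 in OSK has the largest value drawn (1.2).

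Per kilobase of exon, SREBF2 had the highest mean level in GFP of the 21 enzymes and both regulators, at 1196 normalised counts per kilobase, and among the 9 genes it was followed by DHCR7 (711) and LSS (592). IDI1 (244) and FDPS (253) were the lowest of the 9 genes in GFP, and MVK (32.8), mevalonate kinase, was the lowest of all 23. In Sox2, DHCR7 (1233) and MSMO1 (1032) stood above SREBF2 (968). LSS went from 592 in GFP to 399 in OSK, next to FDPS at 391.

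OSK was compared with each single factor, comparisons that share the OSK libraries and do not involve GFP. Against Oct4, 0 of the 9 genes were higher and 3 were lower in OSK, with 40.3% of all genes called in either direction. These were LSS (-1.01, SE 0.07, adjusted p = 2.4e-08), SREBF2 (-0.53, adjusted p = 3.5e-05) and HMGCS1 (-0.44, adjusted p = 0.000208). Against Sox2, 2 were higher and 2 lower, with 40.5% called. SREBF2 (0.79, adjusted p = 4.05e-07) and IDI1 (0.38, adjusted p = 0.00045) were higher in OSK than in Sox2, and LSS (-0.73, adjusted p = 9.68e-07) and DHCR7 (-0.44, adjusted p = 0.000266) were lower. Against Klf4, 2 were higher and 1 lower, with 21.5% called. IDI1 was higher by 0.59 (adjusted p = 1.45e-05) and LSS lower with a change of -0.35 (adjusted p = 0.00261, and 0.0918 with TMM factors over all features). SREBF2 was higher by 0.30 (adjusted p = 0.0092), a call lost without Klf4 replicate 1 (0.0603), OSK replicate 1 (0.0763) or OSK replicate 2 (0.0552).

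The single-factor lines also differed from each other. Between Oct4 and Sox2, 4 of the 9 genes were higher in Oct4 and 2 higher in Sox2, with 33.4% of all genes called. HMGCS1 was higher in Oct4 by 0.38 (adjusted p = 0.00107) and DHCR7 was lower in Oct4 with a change of -0.43 (adjusted p = 0.000377). FDFT1 was also lower in Oct4 (-0.19), a call lost with edgeR (adjusted p = 0.0515) and DESeq2 (0.0573), among other alternatives. Between Oct4 and Klf4, 4 were higher and 1 lower in Oct4, with 41.7% called. SREBF2 (0.82, adjusted p = 2.29e-07) and LSS (0.66, adjusted p = 2.32e-06) had the largest differences. The lower gene was SQLE (-0.19), a call lost with edgeR (adjusted p = 0.0532) and DESeq2 (0.0818), among other alternatives. Between Sox2 and Klf4, 4 were higher and 1 lower in Sox2, with 40.8% called, and DHCR7 (0.60, adjusted p = 1.07e-05) and SREBF2 (-0.50, adjusted p = 5.81e-05) differed most.

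The OSK change of each gene was then compared with what adding up its log2 changes in the Oct4, Sox2 and Klf4 lines would give. The OSK change was below the sum for 8 of the 9 genes and above it for 0, with 35.9% of all genes tested called in either direction and 20.3% below. The median difference was -0.85 for the 9 genes and -0.02 for all genes tested. A change from GFP that all factor lines share, whatever its source, enters the sum once per single factor but the OSK change only once. Genes that rise alike in every line therefore lie below the sum by arithmetic. Of all genes tested 3.36% were called higher in every line, so their median is not a like comparison. FDPS was farthest below, with 0.63 in OSK against a sum of 1.86 (difference -1.23, SE 0.14, adjusted p = 3.61e-06). As given above, FDPS rose alike in all lines. DHCR7 had 0.36 against 1.35 (adjusted p = 4.68e-05), LSS -0.57 against 0.39 (adjusted p = 4.36e-05), SQLE 0.43 against 1.31 (adjusted p = 6.38e-05) and HMGCS1 0.22 against 1.06 (adjusted p = 0.000184). FDFT1 had 0.35 against 1.11 (adjusted p = 0.000283), and IDI1 0.80 against 1.37 (adjusted p = 0.00276). The OSK estimate of IDI1 was 0.06 above that of Oct4, its largest single-factor change, a difference that did not pass (adjusted p = 0.518).

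SREBF2 had 0.49 in OSK against a sum of 0.91 (adjusted p = 0.0273), but this call was lost when either library of Sox2, Klf4 or OSK, or Oct4 replicate 1, was left out, with adjusted p from 0.0535 to 0.0713. INSIG1 did not pass (0.25 against 0.51, adjusted p = 0.175). With TMM factors over all features this contrast had a median of -0.14 over all genes tested, and SREBF2 then had a difference of -0.54 (adjusted p = 0.159). Of the 21 enzymes, 16 were below the sum and 0 above, with the same limit for changes that all factor lines share. POU5F1 and SOX2 were lower in OSK than in the single-factor lines (the values are given above), and the part of this in the difference was not tested.

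**Figure D4:**
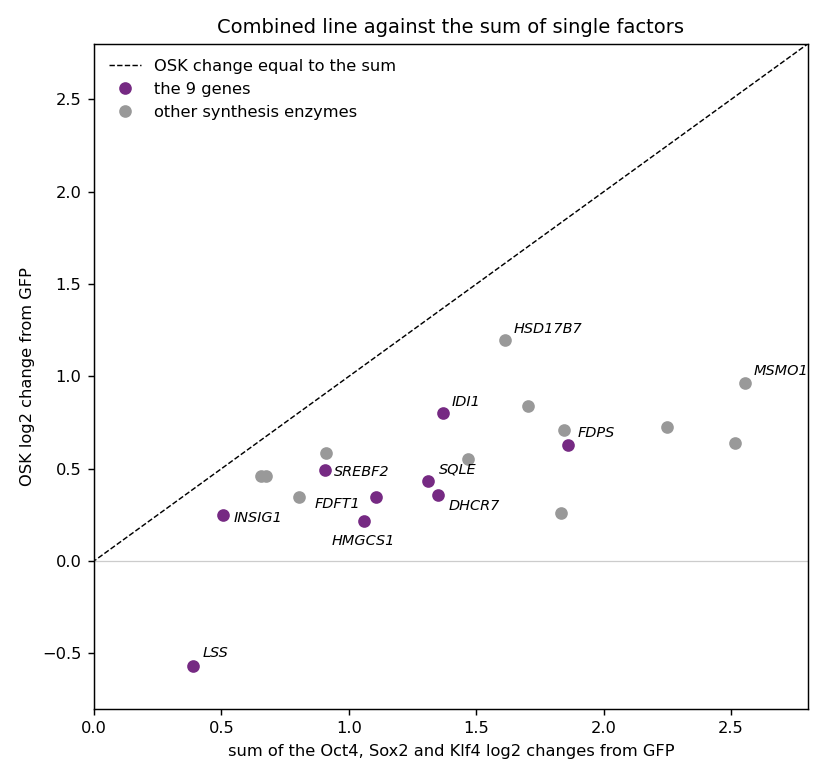
OSK log2 change from GFP (vertical axis) against the sum of the Oct4, Sox2 and Klf4 changes (horizontal axis) for the 9 genes (purple) and 12 other enzymes (grey); the dashed line marks equality. All 21 points lie below the line, with FDPS at 0.63 against 1.86 and MSMO1 at 0.97 against 2.55. A change that all factor lines share enters the sum once per single factor.

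Of 13 genes that sense sterol or process SREBP, 6 rose and 1 fell in Oct4, 6 rose and 1 fell in Sox2, 3 rose and 1 fell in Klf4, and 4 rose and 0 fell in OSK, with medians from -0.03 to 0.19. The shares of all genes tested that were called in either direction, against which this list and those that follow are to be read, were 37.3%, 41.6%, 33.5% and 39.7% in Oct4, Sox2, Klf4 and OSK. SCAP rose in Oct4 (0.46, adjusted p = 0.000202) and was not called in the other lines (-0.10 to -0.06). MBTPS1, the site-1 protease that cleaves SREBP, rose by 0.50 in Oct4 (adjusted p = 1.61e-05) and 0.31 in OSK (adjusted p = 0.00124). RNF145, a sterol-responsive ubiquitin ligase, rose by 0.96 in Sox2 (adjusted p = 1.49e-08).

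SREBF1, the paralog of SREBF2 that mainly drives fatty acid synthesis, had 1553, 1861 and 1879 normalised counts in GFP, 1392 and 1371 in Oct4, 933 and 1039 in Sox2, 2583 and 2305 in Klf4, and 1863 and 1715 in OSK. It was below GFP in Oct4 and Sox2, above it in Klf4, and overlapped with it in OSK. It fell in Sox2 with a change of -0.83 (SE 0.09, adjusted p = 1.42e-06) and in Oct4 with -0.35 (adjusted p = 0.00594, up to 0.101 in the alternative analyses), rose by 0.47 in Klf4 (adjusted p = 0.000648), and had 0.02 in OSK (adjusted p = 0.865). Among 12 fatty acid synthesis genes, 4, 6, 4 and 5 rose and 2, 1, 1 and 2 fell in Oct4, Sox2, Klf4 and OSK. FASN, the fatty acid synthase, was called in no line (-0.20 to 0.15). ELOVL6, a fatty acid elongase, rose by 1.82 in Oct4, 2.13 in Sox2 and 1.09 in OSK (adjusted p = 2.3e-08, 2.76e-09 and 6.38e-06). ME1 (2.50) and SCD5 (2.40) rose in Sox2 (adjusted p = 1.08e-09 and 1.32e-11).

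Sterol uptake was represented by 10 genes, of which 4, 3, 4 and 1 rose and 3, 4, 2 and 2 fell in Oct4, Sox2, Klf4 and OSK. MYLIP, a sterol-regulated ubiquitin ligase, fell in all 4 lines, with changes from -0.83 in Sox2 to -0.37 in Klf4, where the adjusted p of 0.00802 reached 0.0641 in the alternative analyses. NPC1, which exports cholesterol from lysosomes, fell in Sox2 with a change of -0.99 (adjusted p = 3.03e-09) and rose by 0.34 in Klf4 (adjusted p = 0.000479). STARD4, a cytosolic sterol carrier, rose by 0.92 in Oct4 and 1.02 in Sox2 (adjusted p = 1.11e-06 and 2.81e-07).

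Of 9 genes of the isoprenoid branches that do not lead to sterols, 2, 1, 3 and 2 rose and 1, 0, 0 and 2 fell in Oct4, Sox2, Klf4 and OSK, where 37.3%, 41.6%, 33.5% and 39.7% of all genes were called; the list's calls are near or below that background. PGGT1B, a subunit of a protein prenyltransferase, rose by 0.89 in Sox2, 0.66 in Klf4 and 0.44 in OSK (adjusted p = 1.73e-06, 6.51e-05 and 0.00151). Of 9 tested genes of sterol efflux, esterification and oxysterols, 2, 2, 2 and 4 rose and 3, 3, 2 and 3 fell. CYP27A1, the mitochondrial sterol 27-hydroxylase, had 265, 339.9 and 324 normalised counts in GFP and 3095 and 3119 in Oct4. It rose by 3.33 in Oct4 (SE 0.12, adjusted p = 1.23e-11) and fell in the other 3 lines, with changes from -1.07 to -0.69.

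The 10 proliferation genes were called higher in 4, 8, 10 and 9 cases and lower in 2, 0, 0 and 0 in Oct4, Sox2, Klf4 and OSK. MKI67, a marker of cycling cells, changed by 0.34, 2.07, 3.45 and 3.25. In the same order, the median log2 change of the 9 cholesterol genes was 0.45, 0.42, 0.21 and 0.36. The part of cycling cells in the changes of these 9 genes was not tested. In bulk RNA a change in how many cells of a kind are present and a change in RNA per cell cannot be told apart.

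Across the 11 libraries the standardised log2 levels of the 9 genes were described by their correlation with the mean of the 9, which each gene also enters. Pearson's r was 0.89 for FDPS, 0.88 for FDFT1, 0.85 for IDI1, 0.81 for SQLE and HMGCS1, 0.75 for DHCR7, 0.68 for INSIG1, 0.49 for SREBF2 and 0.19 for LSS. The closest pair was SQLE and FDPS (r = 0.95 over 11 libraries), and the most opposed was LSS and INSIG1 (r = -0.41). Outside the 9, the genes whose levels ran most like their mean included PHC3, ZFC3H1, MIR4435-2HG, CYP51A1, OSTF1, HIGD1A, RAB6A, APIP and RAPH1, with r from 0.96 to 0.97 over 11 libraries. CYP51A1, the lanosterol demethylase, is the single synthesis enzyme among these, and it rose by 0.95, 0.91, 0.65 and 0.64 in Oct4, Sox2, Klf4 and OSK. These libraries share lines and a library factor, so the values of r describe these samples only.

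Of the 9 genes, 6 share exon sequence with a gene on the other strand, and the labels do not state whether counting used strand. FDPS shares 693 exon bases with RUSC1-AS1, which reached at most 13.8% of the FDPS level in any library. IDI1 shares 643 bases with IDI2-AS1 (at most 10.5%) and SREBF2 shares 280 with SREBF2-AS1 (at most 1.44%). HMGCS1 (703 bases with AC114947.2), LSS (448 with AP001468.1 and 122 with AP001469.1) and FDFT1 (217 with AC069185.1) overlap genes not listed under these names in the deposited table. For none of the 6 genes is the share of reads from the other strand bounded, since a level listed for the antisense gene does not limit it. Reads of these pairs cannot be told apart without strand. Processed pseudogenes of FDPS and IDI1 were listed at no more than 1.34% of the level of the gene they resemble.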

How the data were processed

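RNA of the 11 libraries was extracted with TRIzol, enriched with oligo(dT) and prepared with the NEBNext Ultra II RNA kit, per the labels' protocols. STAR 2.7.1a, featureCounts 1.6.2 and the builds GRCh38/hg38 and GRCm38/mm10 are named in the submitters' processing notes, without role or order. The deposited values are a signal in normalised counts: gene counts divided by 1 factor per library and rounded to 2 decimals, since in every library each value up to 200 was a whole number of reads times a fixed step (tolerance 0.0061). The step was near 1 in GFP replicates 1 and 2 (0.993 and 1.01).

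Groups came from the sample titles. limma 3.58.1 with trend (R 4.3.3) was fitted on log2(value + 1) for 18828 genes that reached 10 in 2 or more libraries. All 11 libraries entered 1 fit with a mean per group (6 residual and 9.21 prior degrees of freedom). Adjustment followed Benjamini-Hochberg across the genes tested, and calls needed an adjusted p below 0.05. Alternatives were pseudocounts of 0.5 and 5, testing every gene, a filter at a mean CPM of 1, the replicate number as a block, TMM factors, only the compared groups, each library left out in turn, and edgeR 4.0.16 and DESeq2 1.42.0 on recovered reads. TMM factors over all features, and leaving out GFP replicate 1 with OSK replicate 1, were chosen after seeing the data. The procedure was tested on simulated counts. The members, the gene lists and the promoter strings were chosen with earlier results of these data known. All 9 members are described. Of each other list up to 3 genes per direction and comparison were eligible, those with the largest changes, and also paralogs, the delivered factors and the 10 genes most correlated with the members' mean. ABCA1 in Klf4, FASN and the uncalled changes of listed enzymes were named after their values were seen. Some genes that this rule covers are not reported here. Gene positions and exon lengths are those of GENCODE release 29, and promoter and microRNA sequences those of RefSeq.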

Additional observations from a re-analysis of the deposited data

How the results depend on the processing

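Of 36 changes of the 9 genes from GFP, 32 passed the test, and 22 of these passed in all 22 alternative analyses. Over all 11 contrasts, 47 of 66 called changes did. The count of members called in Klf4 against GFP, 8 in the main analysis, was 3 without the filter, 5 with the replicate number as a block, 2 with TMM factors over all features and 3 with only the compared groups, and ranged from 3 to 6 when 1 library was left out. With TMM factors over all features, 1 of the 9 genes instead of 3 was called in OSK against Klf4, 3 instead of 6 in Oct4 against Sox2 and 3 instead of 5 in Sox2 against Klf4, which ranged from 3 to 5 with 1 library left out. All genes called in OSK against Klf4 numbered 4049, and 2519 to 4905 with 1 library left out. The cause of these moves was not tested, except that leaving out a library leaves fewer samples.

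The signs that turned belong to differences of the 9 genes that passed the test neither in the main analysis nor where the sign turned. With 1 library left out, the log2 difference ranged from -0.0546 to 0.0464 for DHCR7 and from -0.0432 to 0.0998 for FDFT1 in OSK against Oct4. It ranged from -0.118 to 0.0328 for FDPS in OSK against Sox2, and in OSK against Klf4 from -0.0381 to 0.0271 for FDPS and from -0.0508 to 0.0822 for INSIG1. In Sox2 against Klf4 it ranged from -0.0383 to 0.112 for FDPS and from -0.0125 to 0.0166 for SQLE, and in Oct4 against Sox2 from -0.00284 to 0.0223 for INSIG1. DHCR7 in OSK against Oct4 was 0.00762 with TMM rescaled, 0.00751 with edgeR, 0.000614 with DESeq2 and 0.0340 without GFP replicate 1 and OSK replicate 1, which also gave -0.0109 for INSIG1 in OSK against Klf4. INSIG1 in Oct4 against Sox2 was -0.00879 with TMM rescaled, -0.0199 with TMM over all features and -0.00901 with edgeR.

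Libraries of different lines that share a number are not stated to be paired. The deviations of same-numbered libraries correlated between -0.07 and 0.04, except for GFP and OSK (0.44 and 0.31), so the numbers were not taken as pairs. With the replicate block, 5 genes were called in Klf4 against GFP, 5 in Oct4 against Sox2 and 4 in Oct4 against Klf4, and the other counts of members were as in the main analysis. The lowest count behind a member was 914 reads, so depth does not limit these values, while 2 libraries per line limit the precision.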
